A study of Mus musculus with 16 samples.

Results

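The 8 genes described here encode the proteins of the perineuronal net: the lecticans Acan, Bcan, Ncan and Vcan, the link proteins Hapln1 and Hapln4, and the tenascins Tnr and Tnc. They are 8 of the 26371 gene symbols counted in basal cultures and 8 of the 55304 counted in silenced cultures. The genes were chosen by symbol on the basis of the Acan counts, which had stood out in basal cultures between shNup153-2 and shControl and between the 2 Nup153 hairpins, so the values of those contrasts are given as a description, with no test for the 8 genes. All libraries were made from cultured cortical neurons of mouse embryos (C57BL/6, embryonic day 17.5 to 19.5), with a litter pooled for each replicate. Every culture, controls included, received an adeno-associated virus with a short hairpin RNA on day 8 in vitro and was collected on day 13. Silenced cultures were treated for 24 hours with 1 to 2 µM tetrodotoxin, which blocks sodium channels, and for 6 hours with 100 µM D-AP5, which blocks NMDA receptors. They gave 3 libraries with hairpin shNup153-2 against the nucleoporin Nup153 and 3 with the control hairpin shControl. Basal cultures, without these drugs, gave 2 libraries with shNup153-2, 2 with shNup153-1 and 4 with shControl. The labels state that samples were carried forward only where knockdown was sufficient, so weaker knockdowns are not represented.

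A perineuronal net is a dense extracellular matrix that wraps the cell body and proximal dendrites of some neurons, most of all fast-spiking interneurons that contain parvalbumin. Its backbone is hyaluronan, on which lecticans, the chondroitin sulfate proteoglycans of the brain, are held by link proteins and cross-linked by tenascins. Aggrecan, the product of Acan, is the lectican most specific to nets, and nets in the mouse cortex form late and depend on neuronal activity. The counts used here measure transcripts of a mixed culture. Deposited nets were not measured, and fewer cells of a type cannot be told apart from less RNA per cell.

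Total counts per library ran between 26863535 and 56299817. Nup153 stood at 9.38 to 13.4 CPM, the usual count relative to library size, with totals scaled by TMM factors, in silenced shNup153-2 libraries, against 52.1 to 64.2 CPM in silenced shControl. In basal cultures it stood at 11.6 to 13.5 CPM with shNup153-2 and 17.1 to 28.0 CPM with shNup153-1, against 52.9 to 94.5 CPM in shControl. Neuronal transcripts were present in every library, with the neuronal splicing factor Rbfox3 at a lowest value of 129 CPM. Astrocyte transcripts were present as well, while the 3 microglial markers measured, of 8 listed, summed to 1.57 CPM at most. Parvalbumin (Pvalb), the defining marker of the interneurons that carry most nets, stood at 0.703 to 1.7 CPM in silenced shNup153-2 libraries, against 0.273 to 0.792 CPM in silenced shControl. In basal cultures it stood at 7.44 to 16.7 CPM with shNup153-2 and 13.3 to 40.1 CPM with shNup153-1, against 1.02 to 11.3 CPM in shControl.

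Each link protein gene lies beside a lectican gene in the mouse genome (mm10, GENCODE gene models). Hapln1 (chr13:89539796-89611652, plus strand) and Vcan (chr13:89655312-89742509, minus strand) are separated by 43.7 kb with no protein-coding gene between them. Hapln4 (chr8:70083457-70090862, plus strand) ends 2222 bases from Ncan (chr8:70093085-70120873, minus strand). Acan (chr7:79053483-79115099, plus strand) ends 2 bases before Hapln3 on the other strand, and Bcan (chr3:87987531-88000230, minus strand) neighbours Hapln2. The tenascin genes stand apart, Tnr at chr1:159523769-159931729 on the plus strand and Tnc at chr4:63959785-64047015 on the minus strand. No exon of another gene overlapped the exons of the lectican and link protein genes on either strand. Antisense exons covered 3.40% of the exon bases of Tnr and 2.30% of those of Tnc.

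The promoters of Acan and Hapln1, which stood higher with both hairpins in basal cultures, and of Tnc, the member that fell in silenced cultures, are shown from 250 bases before to 50 bases after the start annotated by RefSeq on GRCm38.p6. Capitals mark matches on either strand to GGGCGG (the GC box), TATAAA (the TATA box) and TGACG (the core of the cAMP response element, CRE).
Acan promoter (chr7:79052976-79053275, plus strand): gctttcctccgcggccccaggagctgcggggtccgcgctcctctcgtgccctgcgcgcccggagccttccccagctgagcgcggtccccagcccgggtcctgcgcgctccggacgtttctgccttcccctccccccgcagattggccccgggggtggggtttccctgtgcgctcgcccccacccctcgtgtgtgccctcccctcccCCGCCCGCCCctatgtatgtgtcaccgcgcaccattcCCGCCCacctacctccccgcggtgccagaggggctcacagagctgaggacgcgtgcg
Hapln1 promoter (chr13:89540386-89540685, plus strand): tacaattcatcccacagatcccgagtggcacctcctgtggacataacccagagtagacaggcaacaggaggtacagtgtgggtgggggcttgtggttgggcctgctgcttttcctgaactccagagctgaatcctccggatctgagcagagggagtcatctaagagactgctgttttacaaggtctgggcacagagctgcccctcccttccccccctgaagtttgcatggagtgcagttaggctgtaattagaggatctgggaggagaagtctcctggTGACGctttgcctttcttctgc
Tnc promoter (chr4:64046887-64047186, minus strand): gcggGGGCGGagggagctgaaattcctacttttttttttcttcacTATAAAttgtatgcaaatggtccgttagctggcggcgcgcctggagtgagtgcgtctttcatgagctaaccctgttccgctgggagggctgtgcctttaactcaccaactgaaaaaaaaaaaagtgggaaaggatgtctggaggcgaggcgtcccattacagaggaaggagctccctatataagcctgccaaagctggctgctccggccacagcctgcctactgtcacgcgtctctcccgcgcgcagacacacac
The Acan window held 74.0% G and C, against a median of 52.7% over 32851 mouse promoters of the same length (interquartile range 45.7% to 61.7%). It held 3 GC boxes, of which a pair overlap, and this motif occurs in 35.7% of those promoters. The Hapln1 window held 54.3% G and C, 3 CpG dinucleotides against 31 in the Acan window, and a CRE core, which 20.8% of promoters hold. It lies inside the GENCODE span of Hapln1 given above, downstream of the GENCODE start, so the 2 annotations differ on where this gene begins. The Tnc window held a match to the GC box and one to TATAAA, a motif of 13.6% of promoters, both near its upstream end. A stretch nearer the start, tatataag, differs from TATAAA and is not marked. Tnc had another promoter entry, further upstream (chr4:64046966-64047265), which held the same motifs and is not shown. GC boxes also lay in the windows of Bcan, Ncan and Vcan. The full CRE (TGACGTCA, in 1.79% of promoters), the AP-1 site (TGANTCA, 7.81%) and the E-box CACGTG (7.15%) matched in none of the 7 members that had a promoter entry. These matches describe the letters of the windows and are not evidence of binding.

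Acan was high in 1 of the 5 groups. In silenced cultures it stood at 2.52, 1.95 and 5.62 CPM in shNup153-2 libraries, against 2.06, 2.65 and 1.96 CPM in shControl libraries. Its basal levels were 30.3 and 36.8 CPM with shNup153-2 and 5.95 and 3.78 CPM with shNup153-1, against 2.73, 2.26, 3.06 and 2.39 CPM in shControl. Both basal shNup153-2 libraries thus lay far above all 12 others, and both shNup153-1 libraries lay above the basal shControl range. Ordered by mean level, basal shNup153-2 (33.5 ± 4.59 CPM, SD, n = 2) was followed by basal shNup153-1 (4.86 ± 1.54, n = 2), silenced shNup153-2 (3.36 ± 1.98, n = 3), basal shControl (2.61 ± 0.36, n = 4) and silenced shControl (2.23 ± 0.37, n = 3). Below the first of these, neighbours in the order overlapped in their libraries. The values rest on 1307 and 1382 Acan reads in the basal shNup153-2 libraries, against 63 to 153 in basal shControl.

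**Figure D1:**
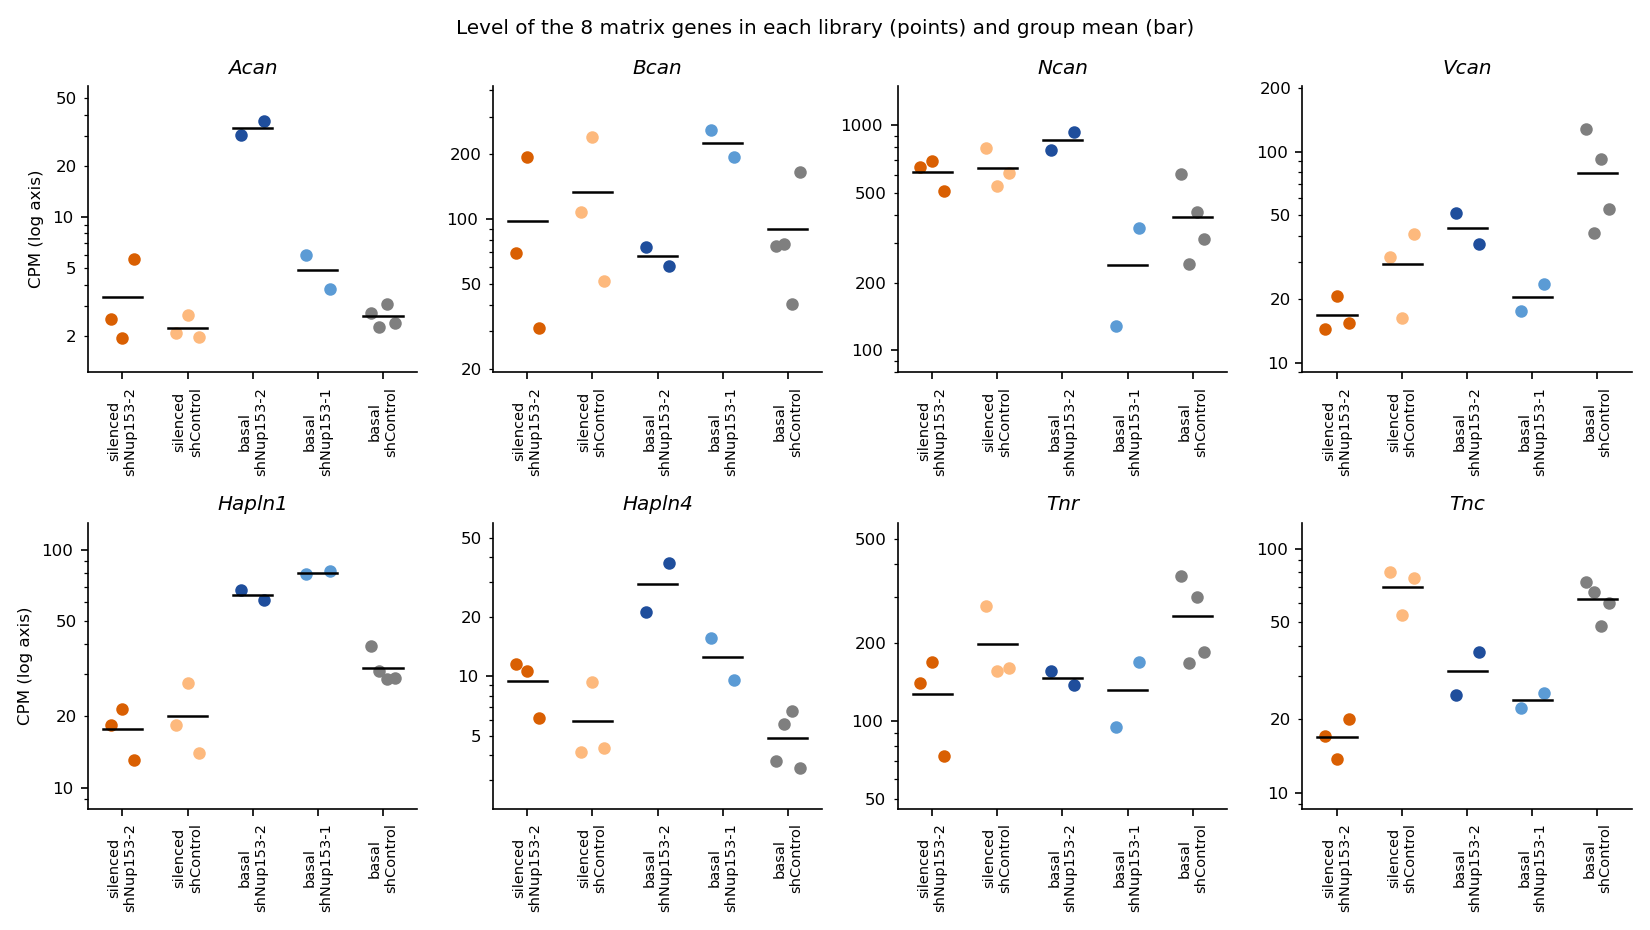
Level of each of the 8 genes in CPM on a log axis, with 1 point per library and a bar at the group mean, for silenced shNup153-2, silenced shControl, basal shNup153-2, basal shNup153-1 and basal shControl. The 2 basal shNup153-2 libraries stand at 30.3 and 36.8 CPM of Acan, above all others, and Tnc is lower in every shNup153 library than in any shControl library.

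With shNup153-2 in basal cultures, the edgeR fit put Acan 12.6-fold higher than in shControl (log2 fold change 3.65, SE 0.21). Acan was chosen because it stood out here, so its rank, 15th highest among the fold changes of 19682 genes, only describes that choice. With each library left out in turn the log2 fold change was 3.51 to 3.78, over libraries that entered the choice. With shNup153-1 the same difference was 0.87 (SE 0.25), and shNup153-2 exceeded shNup153-1 by 2.78 (SE 0.30). These comparisons share control or hairpin libraries and are the ones in which Acan was noticed. In silenced cultures, which played no part in that choice, Acan differed by 0.62 (SE 0.41, edgeR adjusted p = 0.462, 95% interval -0.34 to 1.58) between shNup153-2 and shControl. The shNup153-2 library at 5.62 CPM was the only one above the silenced shControl range. Without that library, replicate 3, the difference was 0.04.

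No other lectican stood as far above shControl in basal shNup153-2 cultures as Acan. Ncan, which encodes neurocan, a lectican of the developing brain, stood at 655, 693 and 510 CPM in silenced shNup153-2 libraries, against 794, 535 and 612 CPM in silenced shControl. Basal libraries had 780 and 934 CPM with shNup153-2 and 128 and 350 CPM with shNup153-1, against 608, 241, 410 and 313 CPM in shControl. The basal shNup153-2 libraries lay above all basal shControl libraries. The shNup153-1 libraries lay far apart, the lower below all basal shControl libraries and the higher among them. The log2 fold changes over shControl were 1.10 (SE 0.34) for shNup153-2 and -0.74 (SE 0.47) for shNup153-1 in basal cultures. In silenced cultures the Ncan value was -0.04 (SE 0.19, edgeR adjusted p = 0.94), with an interval of -0.5 to 0.41.

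Bcan encodes brevican, a lectican made by glia and neurons. It stood at 69.2, 194 and 31.0 CPM in silenced shNup153-2 libraries, against 108, 241 and 51.5 CPM in silenced shControl. In basal cultures it stood at 74.2 and 60.6 CPM with shNup153-2 and 260 and 194 CPM with shNup153-1, against 74.7, 76.7, 40.4 and 166 CPM in shControl. Bcan thus had its highest group mean with basal shNup153-1, where both libraries lay above the basal shControl range. The silenced shControl library at 241 CPM lay between those libraries, and the silenced groups overlapped. Between the groups of silenced libraries the log2 difference was -0.41 (SE 0.74, edgeR adjusted p = 0.821). Silenced libraries of the same replicate number deviated together across genes, and with replicate number as a block Bcan fell by 0.53 (edgeR adjusted p = 0.00948), being lower with shNup153-2 in 3 of 3 pairs. That blocked fit called 4161 of 18965 genes (21.9%), with 10.3% falling, against 654 without the block.

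Markers of glia were set beside Bcan. The summed level of 12 astrocyte markers was 556, 1622 and 285 CPM in silenced shNup153-2 libraries and 587, 1480 and 282 CPM in silenced shControl, the same order of replicates as for Bcan. In basal cultures that order did not hold: the sum was 2564 and 2956 CPM with shNup153-2 and 1505 and 3376 CPM with shNup153-1, against 2810, 629, 1898 and 1438 CPM in shControl. The summed level of the 7 measured markers of oligodendrocyte precursors was 659 and 665 CPM with shNup153-1 in basal cultures, against 73.0 to 211 CPM in basal shControl, and was 179 and 290 CPM with shNup153-2. Of the 6 precursor markers tested, 5 rose with shNup153-1, where 6.52% of all genes tested rose. Gpr17, a receptor of committed precursors, stood at 11 and 25.2 CPM in the shNup153-1 libraries and at no more than 0.155 CPM in basal shControl. Its range was 5.07 to 13.8 CPM in silenced shNup153-2 libraries and 0.366 to 18.9 CPM in silenced shControl. The part of these cells in the levels of Bcan and the other members was not tested.

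**Figure D2:**
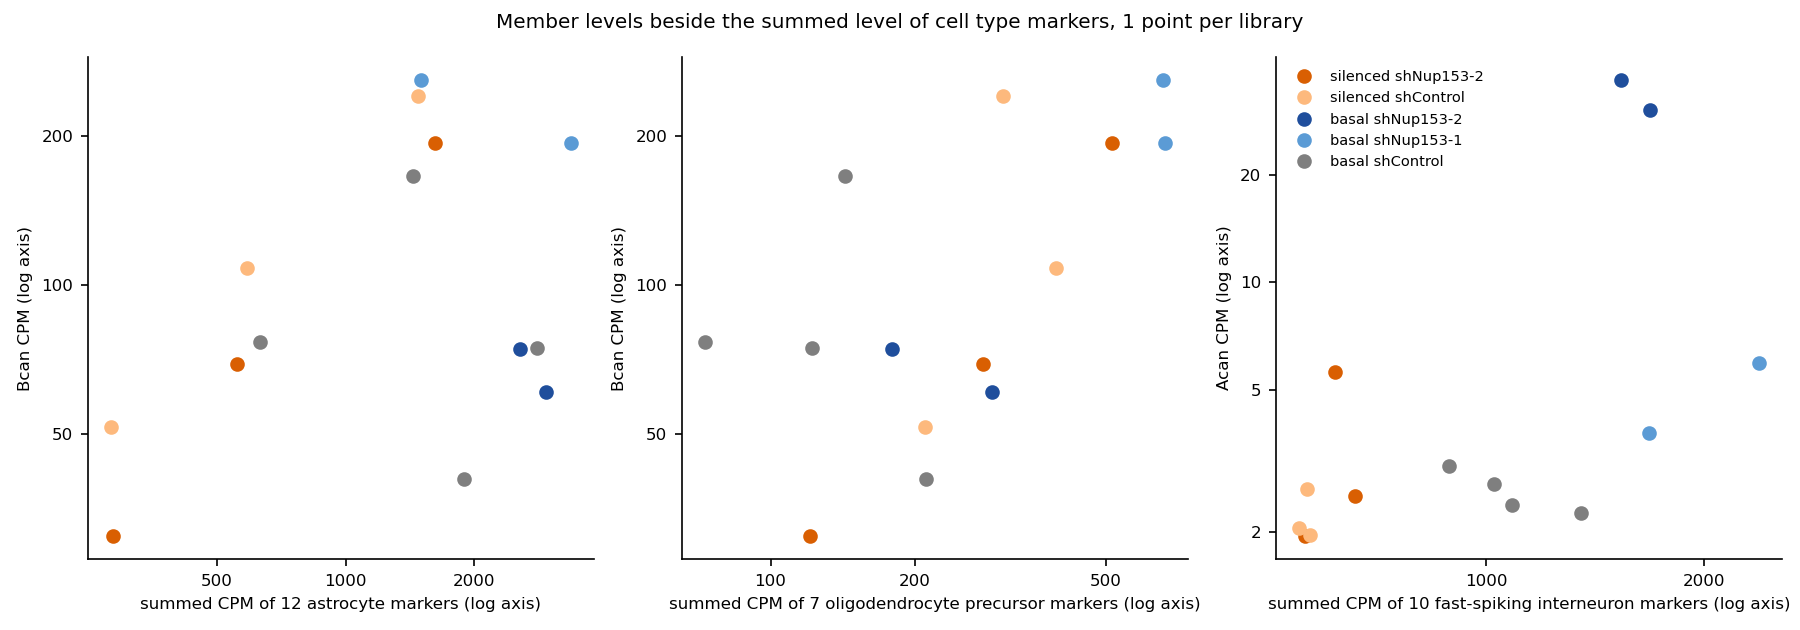
Levels in CPM of Bcan (left and middle) and Acan (right) against the summed CPM of 12 astrocyte, 7 oligodendrocyte precursor and 10 fast-spiking interneuron markers, 1 point per library, all axes on a log scale. Bcan is highest, at 260 CPM, in a shNup153-1 library with 659 CPM of precursor markers, and the Acan levels of 30.3 and 36.8 CPM occur at interneuron marker sums of 1684 and 1534 CPM. The 10 interneuron markers include Gad1, Gad2 and Slc32a1, which are not specific to fast-spiking cells.

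Vcan encodes versican, a lectican that occurs in several splice forms, which gene counts do not separate. It was lower in silenced than in basal control cultures, at 31.6, 16.2 and 40.6 CPM in silenced shControl libraries, against 128, 41.1, 92.7 and 53.6 CPM in basal shControl. These groups did not overlap, though their nearest libraries were close, and Vcan fell by 1.48 on the log2 scale (SE 0.40, edgeR adjusted p = 0.0317). Of the 8 members it was the only one to pass in that comparison, where 12.4% of 20926 genes passed and 6.27% fell. The edgeR call was lost without basal shControl replicate 1 (adjusted p = 0.0739) or 3 (0.0737), and without silenced shControl replicate 1 (0.0977) or 2 (0.0906). The silenced and basal libraries come from separate count tables, so activity state and table cannot be told apart. With Nup153 knockdown, Vcan stood at 14.4, 20.7 and 15.4 CPM in silenced shNup153-2 libraries, and at 51.0 and 36.3 CPM with shNup153-2 and 17.5 and 23.5 CPM with shNup153-1 in basal cultures. The differences from shControl were -0.79 in silenced cultures (SE 0.33, edgeR adjusted p = 0.25), -0.88 with basal shNup153-2 (SE 0.44) and -1.97 with basal shNup153-1 (SE 0.47). Without silenced shControl replicate 2, the lowest of its group, the silenced value was -1.08 with an adjusted p of 0.0453 in edgeR.

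Compared per kilobase of exon, Ncan led the lecticans by group mean in every group but basal shNup153-1. There Bcan averaged 55.8 ± 11.5 CPM per kb, against 33.2 ± 21.8 for Ncan (SD, n = 2). That lead rests on replicate 1 (64.0 for Bcan, 17.8 for Ncan), while in replicate 2 they were close (47.7 for Bcan, 48.6 for Ncan). Acan was the least abundant of all 8 members per kilobase in 4 of the 5 groups. In basal shNup153-2 cultures, at 4.49 ± 0.615 CPM per kb (SD, n = 2), it ranked sixth, above Tnc and Vcan. As a share of all lectican reads per kilobase, Acan made up 0.309%, 0.179% and 0.937% in silenced shNup153-2 libraries, against 0.198%, 0.263% and 0.261% in silenced shControl. In basal cultures it made up 3.02% and 3.24% with shNup153-2 and 0.951% and 0.514% with shNup153-1, against 0.326%, 0.545%, 0.555% and 0.363% in shControl. These shares are ratios within a library, which no scaling between libraries alters.

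**Figure D3:**
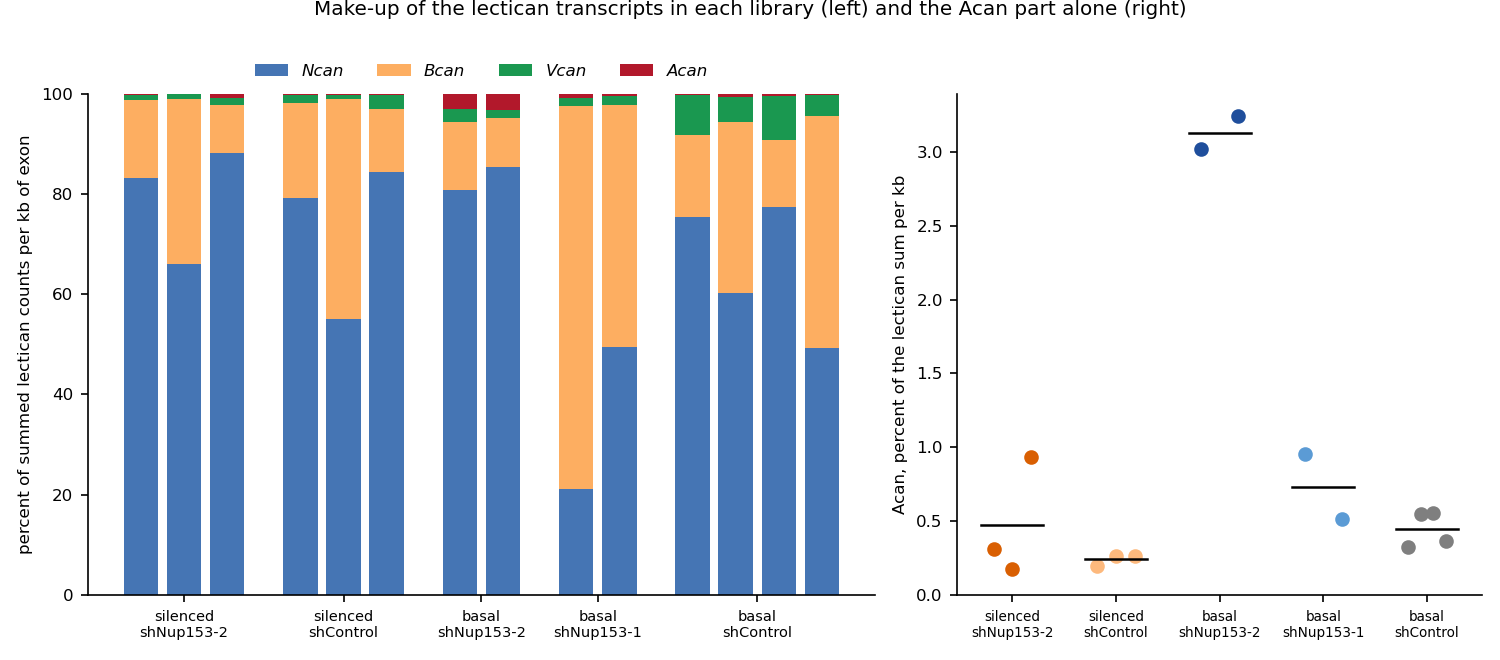
Percent of the summed lectican counts per kilobase of exon held by Ncan, Bcan, Vcan and Acan in each library (left, stacked to 100) and by Acan alone (right, points are libraries, bars are means). Acan makes up 3.02% and 3.24% in the basal shNup153-2 libraries and less than 1% in the other 12. Bcan makes up 76.4% in basal shNup153-1 replicate 1 and 48.4% in replicate 2, where Ncan makes up 49.4%.

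The link proteins Hapln1 and Hapln4, which lock lecticans onto hyaluronan, stood higher with both hairpins in basal cultures. Hapln1 stood at 68.0 and 61.3 CPM with shNup153-2 and 79.0 and 81.2 CPM with shNup153-1, against 39.5, 30.9, 28.6 and 28.9 CPM in basal shControl. Hapln4, also called brain link protein Bral2, stood at 21.1 and 37.2 CPM with shNup153-2 and 15.6 and 9.55 CPM with shNup153-1, against 3.75, 5.77, 6.68 and 3.45 CPM in basal shControl. For both genes every knockdown library lay above every shControl library. The log2 differences of Hapln1 were 0.98 (SE 0.19) with shNup153-2 and 1.30 (SE 0.18) with shNup153-1. Those of Hapln4 were 2.54 (SE 0.33) with shNup153-2 and 1.33 (SE 0.35) with shNup153-1. Between the hairpins Hapln1 differed by -0.32 (SE 0.21) and Hapln4 by 1.21 (SE 0.42), as values with no test.

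In silenced cultures the link proteins of knockdown and control libraries overlapped. Hapln1 stood at 18.4, 21.5 and 13.1 CPM with shNup153-2, against 18.4, 27.5 and 14.0 CPM in shControl. The difference was -0.15 (SE 0.28, edgeR adjusted p = 0.828, interval -0.81 to 0.51). Hapln4 stood at 11.6, 10.7 and 6.2 CPM with shNup153-2, against 4.16, 9.41 and 4.36 CPM in shControl, a difference of 0.69 (SE 0.38, edgeR adjusted p = 0.38, interval -0.21 to 1.6). Hapln4 was higher with shNup153-2 in 3 of 3 pairs of the same replicate number, and with replicate number as a block the difference was 0.73 (edgeR adjusted p = 0.0654), which missed the threshold. In shControl cultures Hapln1 was lower in all 3 silenced libraries than in all 4 basal ones, with a difference of -0.73 (SE 0.24) that missed the threshold in edgeR (adjusted p = 0.0641) and passed it in DESeq2 (adjusted p = 0.0275). Without silenced shControl replicate 2 it also passed in edgeR, at -1.02 (adjusted p = 0.0198). Hapln4 differed there by 0.23 (SE 0.36, edgeR adjusted p = 0.721).

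Neighbouring genes were set side by side. In basal shNup153-1 cultures Hapln1 was higher and Vcan lower than in shControl, so that reads of Hapln1 per read of Vcan came to 4.51 and 3.45, against 0.307 to 0.752 in shControl. With basal shNup153-2 this ratio was 1.33 and 1.69. Hapln1 and Vcan were both lower in silenced than in basal shNup153-2 libraries. Hapln4 and Ncan both lay above all basal shControl libraries with basal shNup153-2 (log2 fold changes 2.54 and 1.10). With basal shNup153-1 Hapln4 stood at 1.33 and Ncan at -0.74. Hapln3, which ends 2 bases from Acan, stood at 1.10 ± 0.156 CPM (SD, n = 2) with basal shNup153-2, against 1.47 ± 0.70 CPM in basal shControl (SD, n = 4), while Acan stood 12.6-fold higher. Hapln2, beside Bcan, had 0 and 1 reads in the shNup153-1 libraries, against 8 to 24 in basal shControl.

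Tnc was the member that fell in silenced cultures. It encodes tenascin-C, a glycoprotein of the developing brain that astrocytes make, and stood at 17.1, 13.8 and 20.1 CPM in silenced shNup153-2 libraries, against 80.0, 53.4 and 75.9 CPM in silenced shControl. All 3 knockdown libraries lay well below all 3 control libraries. The log2 fold change was -2.02 (SE 0.21, edgeR adjusted p = 0.00915), and Tnc was the only one of 8 members past the threshold, where 3.45% of 18965 genes passed and 1.83% fell. The value ranged between -2.18 and -1.89 over the 10 alternatives. The edgeR call was lost without shNup153-2 replicate 1 (adjusted p = 0.0806) or shControl replicate 1 (0.0643), fits in which 4 and 12 genes in all were called. Of 11 astrocyte markers tested in silenced cultures 0 passed in edgeR or in DESeq2 and 0 had an unadjusted p under 0.05, and their median log2 fold change was 0.22; their part in the level of Tnc was not tested.

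In basal cultures Tnc stood at 25.2 and 37.7 CPM with shNup153-2 and 22.3 and 25.7 CPM with shNup153-1, against 73.3, 66.4, 48.4 and 60.0 CPM in shControl. Again no knockdown library reached the shControl range, and the differences were -1.01 (SE 0.25) with shNup153-2 and -1.39 (SE 0.24) with shNup153-1. Silencing did not move Tnc in control cultures by an amount these libraries could show (0.12, SE 0.21, edgeR adjusted p = 0.76, interval -0.33 to 0.56).

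Tnr encodes tenascin-R, the cross-linker of lecticans in mature nets. It stood at 140, 169 and 73.7 CPM in silenced shNup153-2 libraries, against 277, 156 and 160 CPM in silenced shControl. Its basal levels were 156 and 138 CPM with shNup153-2 and 95.1 and 168 CPM with shNup153-1, against 362, 167, 301 and 185 CPM in shControl. The shControl libraries spread widely, and only basal shNup153-2 lay wholly below its control range. The differences from shControl were -0.61 in silenced cultures (SE 0.35, edgeR adjusted p = 0.394), -0.81 with basal shNup153-2 (SE 0.33) and -0.97 with basal shNup153-1 (SE 0.38). Reads of Tnr per read of Tnc came to 8.20, 12.3 and 3.66 in silenced shNup153-2 libraries, against 3.46, 2.93 and 2.11 in silenced shControl.

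**Figure D4:**
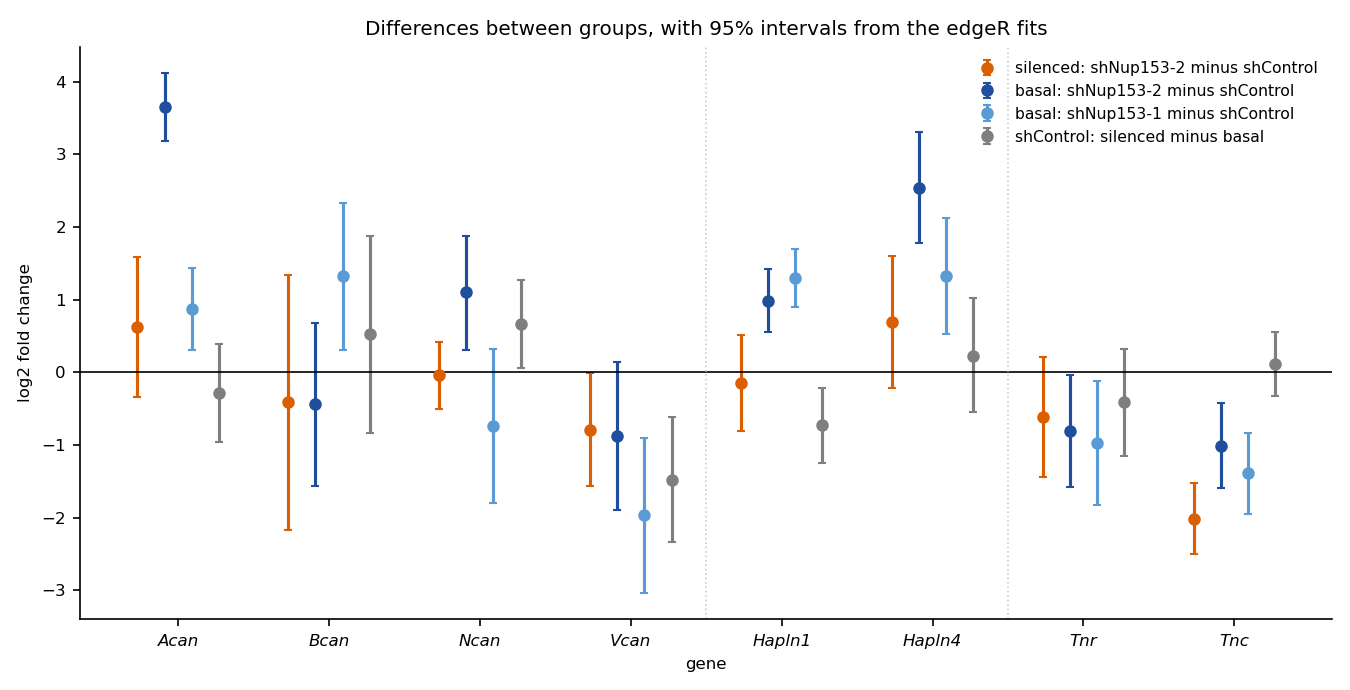
Log2 fold changes of the 8 genes with 95% intervals from the edgeR fits, for shNup153-2 over shControl in silenced cultures, for shNup153-2 and for shNup153-1 over shControl in basal cultures, and for silenced over basal shControl. Dotted lines part lecticans, link proteins and tenascins. The intervals of shNup153-2 and shNup153-1 in basal cultures are a description and not a test, since Acan was noticed there. Acan reaches 3.65 with basal shNup153-2 and 0.62 in silenced cultures, and Tnc is lowest, at -2.02, in silenced cultures.

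Over all genes, 9.55% of 19682 passed a false discovery rate (FDR) of 0.05 with basal shNup153-2 (5.91% upward, 3.64% downward). With basal shNup153-1, 13.6% of 14529 genes passed (6.52% upward, 7.05% downward). Between the hairpins 4.48% of 14529 genes did (2.81% upward). No count of the 8 members is set against these shares. These basal contrasts led to the choice of the genes or share libraries with those that did. Member counts under other settings are given below only to show how calls depend on the processing.

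The effect of shNup153-2 was compared between silenced and basal cultures. Differences of the log2 effects, silenced minus basal, were -3.06 (SE 0.47) for Acan, -1.88 (SE 0.55) for Hapln4, -1.17 (SE 0.36) for Hapln1, -1.16 (SE 0.43) for Ncan and -1.04 (SE 0.32) for Tnc. For Tnc the negative sign means a larger fall in silenced cultures. Those of Bcan, Vcan and Tnr lay between -0.02 and 0.18. The basal part of each difference is the contrast that led to the choice of Acan, so no test is given for single genes. Across all 20926 genes 0 passed FDR in edgeR (0%), while 2393 genes (11.4%) had an unadjusted p under 0.05 and DESeq2 called 283.

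Within shNup153-2 cultures, 21.7% of 20926 genes passed between silenced and basal libraries, and 12.3% fell. The differences, silenced minus basal, were -3.35 for Acan (SE 0.36), -1.90 for Hapln1 (SE 0.28), -1.65 for Hapln4 (SE 0.42), -1.41 for Vcan (SE 0.45) and -0.92 for Tnc (SE 0.25). Those of Ncan, Tnr and Bcan were -0.50 (SE 0.33), -0.24 (SE 0.40) and 0.51 (SE 0.76). The values of the members share the basal libraries in which Acan was noticed. They too are a description, with no test.

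The genes whose products build, anchor and read the net were followed in lists drawn up by function. Among 13 receptors and bound ligands of the net, 2 of 12 tested rose in silenced shNup153-2 cultures and 0 fell, where 3.45% of all genes passed, with a list median of 0.28 against 0.01 over all genes. They were Rtn4r (1.01, SE 0.20, edgeR adjusted p = 0.0448) and Rtn4rl1 (0.89, SE 0.16, adjusted p = 0.0386), Nogo receptor family members that bind chondroitin sulfate chains. In basal cultures 5 of 13 rose and 0 fell with shNup153-2, where 9.55% of all genes passed, with a median of 0.57 against -0.03 over all genes. Those with the smallest p were Rtn4rl1 (1.39, SE 0.23), Nptx2 (2.15, SE 0.37), a pentraxin that gathers AMPA receptors at synapses on parvalbumin cells, and Sema3a (1.19, SE 0.21), a guidance cue held in nets. With shNup153-1, where 13.6% of all genes passed, 1 of 13 rose, Nptx2 at 1.82 (SE 0.36). The list counts that follow are read against these same shares of all genes. Sema3a stood at -0.76 (SE 0.23) there, and its difference between the hairpins was 1.94 (SE 0.27).

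Of the enzymes that build chondroitin sulfate, 1 of 22 tested rose in silenced shNup153-2 cultures and 0 fell, where 3.45% of all genes passed. It was B3gat3, which completes the sugar linker on which the chain is begun (1.02, SE 0.13, edgeR adjusted p = 0.0172). In basal cultures B3gat3 differed from shControl by 1.19 (SE 0.27) with shNup153-2, the only one of 23 past the threshold where 9.55% of all genes passed, and by 1.55 (SE 0.27) with shNup153-1. With shNup153-1, 4 of 23 rose and 2 fell, where 6.52% of all genes rose and 7.05% fell, among them Papss2, which makes the sulfate donor (3.62, SE 0.53), and Dse, a dermatan sulfate epimerase (-1.30, SE 0.23). The basal comparisons share their shControl libraries. List medians lay between 0.08 and 0.35 in these comparisons.

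Genes of hyaluronan metabolism showed 0 of 11 past the threshold in silenced and 0 of 12 in basal shNup153-2 cultures. An unadjusted p under 0.05 was reached by 0 genes in silenced and 3 in basal cultures, and DESeq2 called 0 in silenced cultures and 2 in basal ones, 1 in each direction. With shNup153-1, where 7.05% of all genes fell, 3 of 12 fell, the link protein gene Hapln2 with the few reads given above, the hyaluronan synthase gene Has3 (-1.99, SE 0.46) and the hyaluronidase gene Hyal2 (-0.81, SE 0.22). Among proteases and their inhibitors, 0 of 18 passed in edgeR in silenced shNup153-2 cultures, with 1 at an unadjusted p under 0.05 and 1 called by DESeq2. In basal shNup153-2 cultures 1 of 20 passed, against 9.55% of all genes, Mmp15, a membrane-bound matrix metalloproteinase, at 1.18 (SE 0.23). With shNup153-1, Mmp15 stood at 1.44 (SE 0.22) and Adamts16 at -2.10 (SE 0.46).

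Of 21 other proteoglycans tested, 1 fell in silenced shNup153-2 cultures, the glypican Gpc2 (-1.31, SE 0.18, edgeR adjusted p = 0.0181), where 1.83% of all genes fell, and none rose. Gpc2, a glypican of developing neurons, differed from shControl by -1.75 (SE 0.35) with basal shNup153-2 and -2.31 (SE 0.47) with basal shNup153-1. With basal shNup153-2, 2 of 21 rose and 2 fell, where 5.91% of all genes rose and 3.64% fell, including Sdc3, a neuronal syndecan (1.35, SE 0.24), and Gpc3 (-1.49, SE 0.27). With shNup153-1, 2 of 21 fell, where 7.05% of all genes fell.

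**Figure D5:**
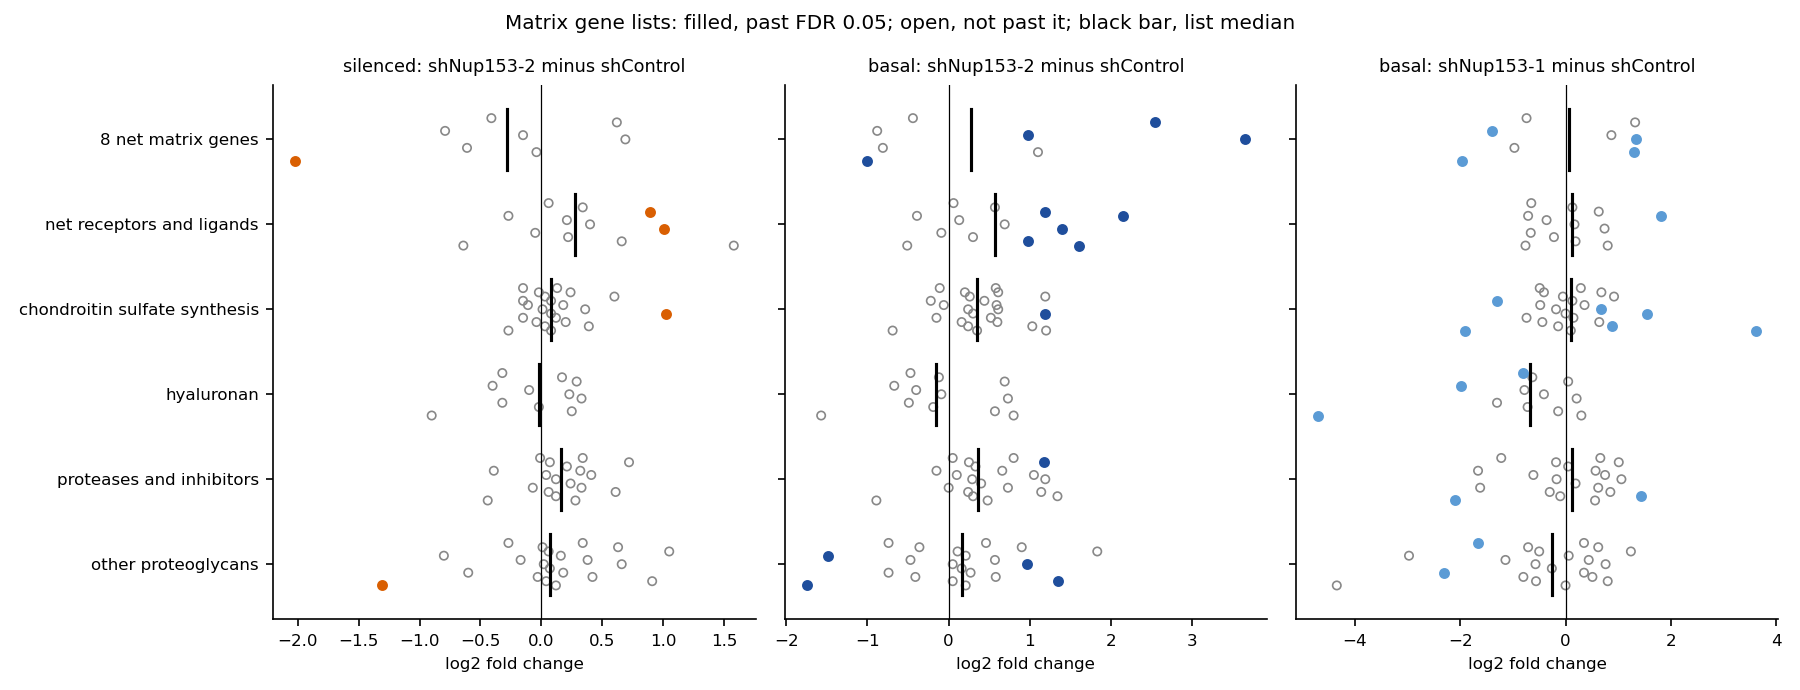
Log2 fold change of each tested gene of 6 matrix lists, with shNup153-2 over shControl in silenced cultures (left), and with shNup153-2 (middle) and shNup153-1 (right) over shControl in basal cultures. Filled points passed FDR 0.05, open ones did not, and black bars are list medians. In the receptor and ligand list 2 genes rose in silenced and 5 in basal shNup153-2 cultures.

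Markers of interneurons were set beside Acan, since fast-spiking interneurons carry most nets. The list of 10 was drawn up for fast-spiking cells but includes Gad1, Gad2 and Slc32a1, which GABAergic neurons share. In basal shNup153-2 cultures these averaged 613, 379 and 137 CPM, against 12.1 CPM for Pvalb, so the sum is not specific to fast-spiking cells. The summed level of the 10 genes was 561 to 657 CPM in silenced shNup153-2 libraries, against 550 to 569 CPM in silenced shControl. In basal cultures it was 1534 to 1684 CPM with shNup153-2 and 1681 to 2385 CPM with shNup153-1, against 888 to 1351 CPM in shControl. The sums of the 2 hairpins overlapped, while their Acan levels did not. With basal shNup153-2, 2 of 10 passed upward, the potassium channel gene Kcnc2 (1.28, SE 0.17) and the synaptotagmin gene Syt2 (1.5, SE 0.37). With basal shNup153-1, 2 of 10 passed upward as well, Syt2 (2.4, SE 0.36) and the GABA transporter gene Slc32a1 (1.72, SE 0.36). Between the hairpins, shNup153-2 over shNup153-1, the list median was -0.36 against 0.01 over all genes, and 1 of 10 passed, Kcnc2, upward. Kcnc2 stood at 111 to 136 CPM with shNup153-2 and 54.7 to 59.1 CPM with shNup153-1, whereas Syt2 stood at 38.1 to 38.9 CPM with shNup153-2 and 55.2 to 87.4 CPM with shNup153-1. Gad1, a GABA-synthesis gene, stood at 590 to 636 CPM with shNup153-2 and 744 to 1236 CPM with shNup153-1. In shControl cultures 7 of these 10 markers fell with silencing, where 6.27% of all genes fell. The part of interneurons in the level of Acan was not tested.

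Across the 14 libraries, the genes whose log2 CPM followed Acan most closely among 12933 were Ankrd50 (Pearson r = 0.93), Usp6nl (0.926), Atp2a2 (0.922), Pou6f1 (0.913) and R3hdm1 (0.913). Atp2a2 encodes a calcium pump of the endoplasmic reticulum and Pou6f1 a POU-domain transcription factor. All 5 were highest in the basal shNup153-2 libraries, which follows from picking them by likeness to Acan. Ankrd50 averaged 191 ± 6.85 CPM there, against 59.0 ± 12.7 CPM in basal shControl (SD, n = 2 and 4). The most opposed were Fam120b (-0.932), Rnf2 (-0.923), a ubiquitin ligase of Polycomb complexes, and Fbxo5 (-0.919). Among the members, Hapln4 was most like Acan (0.798, 142nd of 12933), followed by Hapln1 (0.588), and Tnr was least like it (-0.34). The highest correlations between members other than with Acan were those of Vcan with Tnr (0.76) and with Tnc (0.61). These correlations are descriptions over libraries that share groups and tables.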

How the data were processed

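RNA was measured by stranded poly(A) sequencing with 12 PCR cycles, per the labels' protocols. Per the submitters' processing notes, the authors used FastQC, featureCounts 2.0.1 and the mm10 build, and the values they deposited are whole-number counts per gene symbol, not normalized. For the aligner, annotation and strand setting, nothing is given in the sources used here. Groups were taken from sample titles, since descriptions of the shNup153 samples name the control virus. At basal state 2 columns share a name and were not used. The shNup153-1 columns are out of register with the gene names after line 16399 (correlation with shControl 0.975 up to it, 0.096 after), so comparisons with shNup153-1 used lines 1 to 16399, which hold all members.

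Genes were filtered with filterByExpr (minimum count 10) and tested with edgeR 4.0.16 (quasi-likelihood, TMM, Benjamini-Hochberg over all genes, threshold 0.05) in R 4.3.3. A log2 fold change is the fitted value, and its interval is 95%. Basal shNup153-2 was tested with shControl alone, comparisons with shNup153-1 used all 3 basal groups, silenced libraries were tested on their own, and comparisons between states used 4 groups on shared symbols. Levels in CPM use 1 TMM scaling of all 14 libraries. Alternatives were DESeq2 1.42.0, its size factors, no filter, a replicate block, other sets of lines or groups, and each library left out. The edgeR fits were also run on simulated counts, with the libraries drawn independently. Those counts lack the joint deviations of silenced libraries described below, so they cannot show how the fits behave with them. Total counts limit the precision, and p-values weigh a difference against the fitted spread between replicate libraries.

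Silenced libraries of the same number deviated together (residual correlations 0.44, 0.68 and 0.77 over 14575 genes), though no label says that a number marks a shared litter. The main silenced fits did not use the number. Silenced differences, SEs, intervals and adjusted p-values are from those unpaired fits unless the block is named. A fit with the number as a block was run as an alternative. Basal numbers did not pair. Members and gene lists were chosen with earlier results of these data known. The text names the 8 members, Nup153, up to 3 called genes with the smallest p per list and comparison, the 5 genes most and 3 least like Acan by Pearson correlation of log2 CPM (prior count 2), leaving out predicted and clone-named genes, and markers that move with a member. Promoter sequences are from RefSeq (GRCm38.p6), which matched 7 of the 8 members.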

Additional observations from a re-analysis of the deposited data

How the results depend on the processing

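The number of members past the threshold moved with the tool and the block. For comparisons that use basal shNup153 libraries, these counts only describe how calls depend on the processing. They are not a test of the members, since those libraries led to the choice of the genes or share contrasts with those that did. Fits that leave 1 library in a group cannot measure the spread within it. Calls over all genes are given further below for most of these comparisons. Between the hairpins it was 3 with DESeq2, 3 with all lines as deposited and 0 with a replicate block. It was 0 with a replicate block for basal shNup153-1, 2 with the replicate block in silenced cultures, 2 with DESeq2 and 2 with a replicate block for silenced against basal shControl (Vcan and Hapln1, with Hapln1 at -0.82, adjusted p = 0.0326 in edgeR with the block), and 1 with DESeq2 for the difference of effects between states. With each library left out, the counts ranged between 1 and 4 for basal shNup153-2, 1 and 4 for basal shNup153-1, 0 and 1 between the hairpins, 0 and 2 in silenced cultures, 0 and 1 for silenced against basal shControl, 2 and 5 for silenced against basal shNup153-2, and 0 and 1 for the difference of effects. In silenced cultures the block changed the call of no member but Bcan. The cause of these changes was not tested.

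Signs changed for small values. With libraries left out, Bcan ranged between -0.69 and 0.04 with basal shNup153-2, between -1.38 and 0.32 in silenced cultures, between -0.2 and 1.03 for silenced against basal shControl, between -0.45 and 0.93 for silenced against basal shNup153-2, and between -0.97 and 0.71 for the difference of effects, where it was 0 with DESeq2 size factors and 0 with DESeq2. Tnr ranged between -0.21 and 0.63 between the hairpins, -0.48 and 0.03 for silenced against basal shNup153-2, and -0.08 and 0.48 for the difference of effects. In silenced cultures Ncan ranged between -0.17 and 0.12 and Hapln1 between -0.37 and 0.14. Hapln4 ranged between -0.24 and 0.45 for silenced against basal shControl, and Vcan between -0.3 and 0.35 for the difference of effects. The correlation of Vcan with Acan was -0.24 in basal libraries alone, against 0.038 in all.

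Over all genes, DESeq2 called 3624 with basal shNup153-2, 3146 with basal shNup153-1, 2114 between the hairpins, 1845 in silenced cultures and 283 for the difference of effects. The replicate block called 0 with basal shNup153-1, 0 between the hairpins and 4161 in silenced cultures, and all lines as deposited called 7997 with shNup153-1 and 6665 between the hairpins. With libraries left out the calls ranged between 15 and 2211 with basal shNup153-2, 356 and 2050 with shNup153-1, 0 and 998 between the hairpins and 4 and 659 in silenced cultures. Basal numbers did not pair the libraries: residual correlations were 0.29 and 0.02 between shNup153-2 and shControl, and -0.68 and -0.74 between shNup153-1 and shControl. The mean Acan share of lectican counts in basal shNup153-2 was 3.34%, or 3.13% per kilobase of exon. Groups of 2 libraries limit what the basal values can show.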

Other observations

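In control cultures, several other matrix genes were lower in silenced than in basal libraries, with state and count table not separable. Of 23 enzymes of chondroitin sulfate synthesis, 4 fell and 0 rose, with a list median of -0.13 against -0.03 over all genes. Among them were Csgalnact1, which starts the chain (-0.84, SE 0.17), Chsy3, which extends it (-1, SE 0.2), and Dse (-0.59, SE 0.16). Of 20 proteases and inhibitors, 3 fell, including the protease gene Adamts1 (-2.06, SE 0.55) and the inhibitor gene Timp1 (-2.87, SE 0.77), and 2 rose, including Mmp15 (1.59, SE 0.24). Of 21 other proteoglycans, 4 fell and 1 rose, with Gpc4 at -1.34 (SE 0.16) and Spock3 at -1.32 (SE 0.17). The guidance cue Sema3a fell by 1.11 (SE 0.22) and the Nogo receptor homologue Rtn4rl2 rose by 0.9 (SE 0.2). All these calls are from edgeR at the same threshold, where 12.4% of 20926 genes passed.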
